A study of Mus musculus with 30 samples.

Results

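Perilipins, CIDE proteins and triglyceride lipases coat, enlarge and consume the lipid droplet, and 10 genes of these families were followed here by their symbols: *Plin1*, *Plin2*, *Plin3*, *Plin4*, *Plin5*, *Cidea*, *Cideb*, *Cidec*, *Pnpla2* and *Lipe*. All 10 were present in the count tables, which held 55487 genes in gastrocnemius and 54838 in kidney, and 9 of them passed the filter on low counts in gastrocnemius and 10 in kidney. The libraries were bulk polyA RNA-seq of whole gastrocnemius, a hindlimb muscle made mostly of fast fibres, and of whole kidney. Male wild-type C57BL/6J mice were moved to thermoneutral housing (30 to 32 °C) at 6 weeks of age and received the chow diet (CD) with water, the western diet (WD) with water, or the WD with CHP at 20 mg/kg by gavage 3 times per week (WD+CHP) from Week 7 until euthanasia at Week 24, after 3 h without food. CHP is cyclo(His-Pro), a cyclic dipeptide of histidine and proline. All groups shared the warm housing, so no group describes mice kept at room temperature. Each group had 5 libraries in each tissue, which makes 30 libraries. The study's methods say that the RNA of individual mice was sequenced, while the labels only number the libraries.

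A lipid droplet is a core of triglyceride and cholesteryl ester under a phospholipid monolayer, and the proteins on its surface decide how fast the core is used. Perilipin 1, encoded by *Plin1*, covers the large droplet of adipocytes and holds back lipolysis until it is phosphorylated, whereas perilipin 2 (*Plin2*) and perilipin 3 (*Plin3*) are found on small droplets of most cell types. Perilipin 5 (*Plin5*) is the perilipin of oxidative tissues such as muscle and heart and brings droplets close to mitochondria, and *Plin4* is made in adipocytes and in skeletal muscle. CIDEA and CIDEC (*Cidea*, *Cidec*) pass lipid from small to large droplets in adipocytes, and CIDEB (*Cideb*) acts in hepatocytes and other epithelia. *Pnpla2* encodes adipose triglyceride lipase, which removes the first fatty acid, and *Lipe* encodes hormone-sensitive lipase, which acts on the diglyceride that remains. From this background *Plin1*, *Cidea*, *Cidec* and *Lipe* are called adipocyte-type below and *Plin2*, *Plin3*, *Plin5*, *Cideb* and *Pnpla2* muscle-type or broad, while *Plin4*, known from both, is kept apart.

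Total counts per library ranged from 50319024 to 53282969 in gastrocnemius and from 37189192 to 38211422 in kidney. Since the labels describe the input of every library as frozen liver, the tissue was checked by its markers. All 11 fast fibre markers passed the filter in gastrocnemius, with summed levels of 179208 to 238574 CPM (TMM-scaled counts relative to library size) per library, and all 10 markers of kidney tubule and podocyte passed in kidney, while 0 of these 10 passed in gastrocnemius. Hepatocyte markers summed to 0.458 to 14.6 CPM in 13 gastrocnemius libraries and to 65.9 and 66.9 CPM in CD replicate 1 and WD replicate 3, which therefore stand apart. Each count of members in gastrocnemius was also taken without these libraries.

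Which members each tissue uses was read from the CD libraries, in CPM divided by exon length in kb, the only scale on which different genes are compared here. In gastrocnemius *Pnpla2* was highest at 81.8 ± 8.05 CPM per kb (SD, n = 5), followed by *Plin4* at 55.1 ± 9.16 CPM per kb, and their libraries did not overlap. *Plin2*, *Plin3*, *Plin5* and *Lipe* came next at 8.45 ± 0.822, 7.16 ± 0.774, 5.77 ± 1.34 and 4.82 ± 0.539 CPM per kb, each overlapping its neighbour in this order. The adipocyte droplet genes were lower, with *Cidec* at 2.79 ± 0.507, *Plin1* at 1.87 ± 0.313 and *Cidea* at 0.242 ± 0.126 CPM per kb, of which *Cidec* and *Plin1* overlapped. *Cideb* was the lowest, with 0 to 10 counts per library, and it was the member that did not pass the filter in gastrocnemius. The order in kidney was different: *Pnpla2* led again at 58.1 ± 7.70 CPM per kb, but *Plin2* (19.2 ± 1.39) and *Cideb* (18.8 ± 0.991) came next and overlapped each other, followed by *Plin3* at 10.7 ± 0.30 CPM per kb. *Lipe* and *Plin5* stood at 2.78 ± 0.198 and 2.28 ± 0.415 CPM per kb in kidney, and *Cidea*, *Plin4*, *Cidec* and *Plin1* lay between 0.549 and 0.161 CPM per kb with overlapping libraries.

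**Figure D1:**
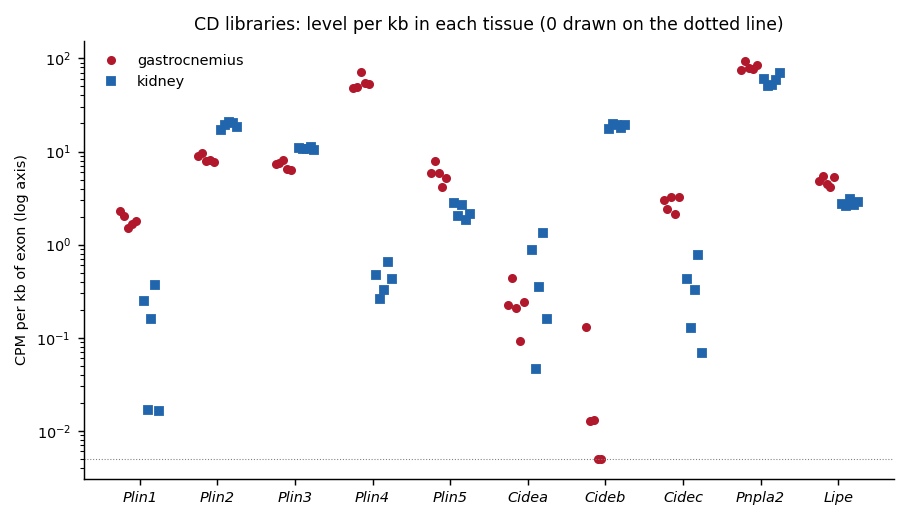
Level of each member in the 5 CD libraries of gastrocnemius (red circles) and kidney (blue squares), in CPM per kb of exon on a log axis, with a level of 0 drawn on the dotted line. Every gastrocnemius point of *Plin4* lies above every kidney point, and *Cideb* shows the reverse order.

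Between tissues on the CD, 9 of the 10 members passed an adjusted p of 0.05 in the edgeR quasi-likelihood fit of all 30 libraries, against 88.1% of all 18708 genes tested, so that a call alone says little and the sizes are given. *Plin4* was 7.80 log2 units higher in gastrocnemius (SE 0.23). *Cideb* was lower there, with a log2 difference of -8.36 (SE 0.27) that rests on the 0 to 10 counts per gastrocnemius library, and without CD replicate 1, the library with 10 counts, it was -10.4. Among the adipocyte-type members, *Plin1* was higher in gastrocnemius by 4.33 (SE 0.46), *Cidec* by 3.82 (SE 0.43) and *Lipe* by 1.59 (SE 0.08) on the log2 scale. *Cidea* was the member not called, at -0.37 (SE 0.71, edgeR adjusted p = 0.622). *Plin5* was 2.14 log2 units higher in muscle and *Pnpla2* 1.29. Smaller differences were those of *Plin2*, at -0.38 (edgeR adjusted p = 1.48e-04), which was not called with the length and GC correction (-0.09, adjusted p = 0.29), and *Plin3*, at 0.22 (edgeR adjusted p = 0.00154), whose sign turned to -0.63 when libraries were scaled by total count only. These differences are relative to the scaling, since the median gene stood at -0.15 between tissues with TMM scaling and at -0.97 with the total count.

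In gastrocnemius the WD raised *Plin5*, *Cidea*, *Cidec* and *Plin1*. Thus 4 of the 9 members tested passed in WD vs. CD, all of them upwards, where 8.63% of 15419 genes passed. With CHP on top of the WD, 2 of 9 members passed, against 0.409% of all genes, and both of them, *Plin1* and *Cidec*, were lower than with the WD alone. In WD+CHP vs. CD, 2 of 9 members passed, against 9.40% of all genes, and these were *Plin5* and *Cidea*, both upwards. The members that rose with the WD therefore divided into a pair that was lower again with CHP (*Plin1*, *Cidec*) and a pair that was called above the CD in both WD groups (*Plin5*, *Cidea*). This is not the split into adipocyte-type and muscle-type members, since *Cidea* stood with *Plin5*. Of the 4 adipocyte-type members *Lipe* was the one not called with the WD, and of the 4 tested muscle-type or broad members *Plin5* was the one called. The list first drawn up also held *Plin4* among the adipocyte-type members, and by that list 3 of 5 were called. These 3 comparisons share groups of libraries and are not independent of each other.

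**Figure D2:**
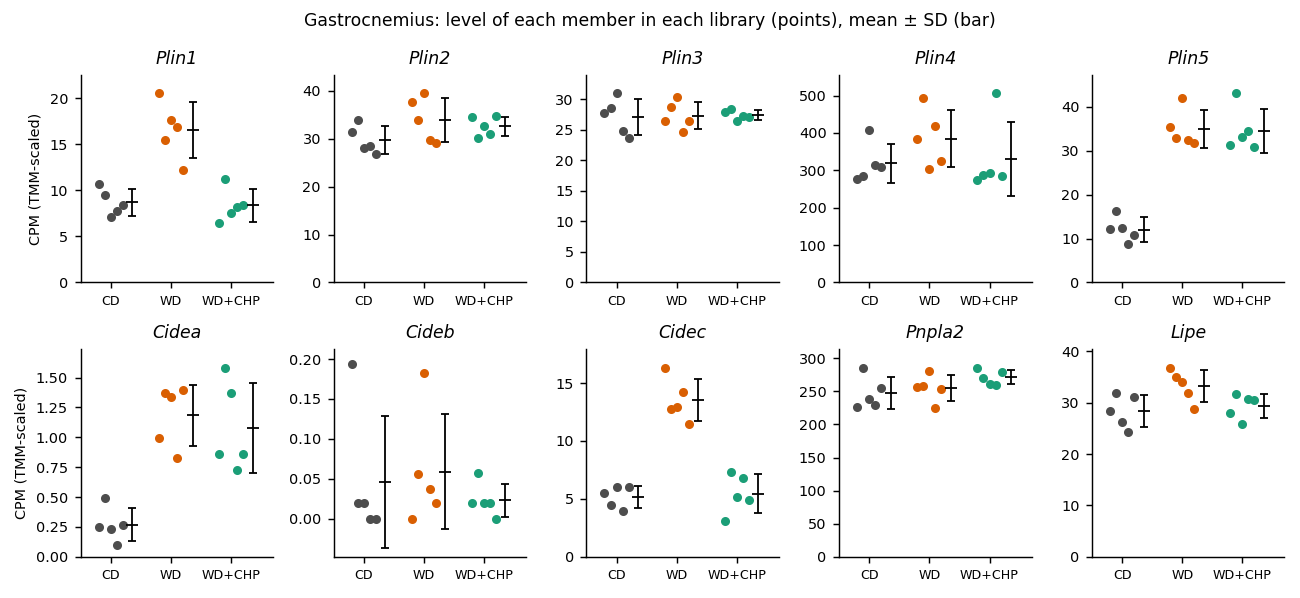
CPM of each member in the 15 gastrocnemius libraries, 1 panel per gene and 5 points per group, with the mean and SD drawn as a bar beside the points. The WD points of *Plin1* and *Cidec* lie above all points of the other groups, and the WD and WD+CHP points of *Plin5* and *Cidea* both lie above all CD points.

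*Plin5*, the perilipin of oxidative tissues, had the lowest p of the members. Its level in the CD libraries was 12.2, 16.3, 12.3, 8.71 and 10.7 CPM in replicates 1 to 5. With the WD it was 35.5, 32.8, 42.1, 32.4 and 31.6 CPM. With WD+CHP it was 31.2, 43.0, 33.0, 34.5 and 30.8 CPM. Every WD and WD+CHP library was above every CD library, and the WD and WD+CHP libraries covered the same range. The mean rose from 12.0 ± 2.79 CPM to 34.9 ± 4.28 CPM (SD, n = 5), a log2 fold change of 1.53 (SE 0.14, adjusted p = 1.23e-05) in the edgeR quasi-likelihood test, and *Plin5* ranked 5 of 15419 genes by p. WD+CHP vs. WD gave -0.02 (SE 0.13, adjusted p = 0.980), and WD+CHP vs. CD gave 1.52 (SE 0.14, adjusted p = 2.20e-05), again by edgeR. The call of *Plin5* against the CD was kept in each of the alternatives tried, with log2 fold changes of 1.19 to 1.67 for WD vs. CD when single libraries were left out or other settings were used.

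*Plin1* and *Cidec*, the coat and the fusion protein of the adipocyte droplet, followed another course. *Plin1* stood at 10.7, 9.54, 7.05, 7.76 and 8.41 CPM in the CD libraries, replicates 1 to 5. In the WD libraries it stood at 20.5, 15.5, 17.6, 16.9 and 12.2 CPM. In the WD+CHP libraries it stood at 6.47, 11.3, 7.52, 8.24 and 8.36 CPM. All 5 WD libraries exceeded all CD and WD+CHP libraries, and the last 2 groups overlapped. The edgeR log2 fold change of *Plin1* was 0.93 (SE 0.15, adjusted p = 0.00120) for WD vs. CD, -0.98 (SE 0.15, adjusted p = 0.00936) for WD+CHP vs. WD and -0.05 (SE 0.15, adjusted p = 0.868) for WD+CHP vs. CD.

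*Cidec* was 5.53, 4.43, 6.00, 3.95 and 5.99 CPM in CD, replicates 1 to 5. It was 16.3, 12.8, 12.9, 14.2 and 11.4 CPM in WD and 3.08, 7.28, 5.17, 6.79 and 4.90 CPM in WD+CHP. As with *Plin1*, the WD libraries lay apart from both other groups, which overlapped. By edgeR the log2 fold change was 1.38 (SE 0.18, adjusted p = 2.34e-04) for WD vs. CD and -1.31 (SE 0.18, adjusted p = 0.00469) for WD+CHP vs. WD, a level 59.7% lower with CHP, and *Cidec* ranked 5 of 15419 genes by p in the CHP comparison. WD+CHP differed from CD by 0.07 (SE 0.19, adjusted p = 0.858) on the log2 scale in edgeR. The calls of *Plin1* and *Cidec* held under each alternative but the adipocyte covariate, whose values stand beside the adipocyte markers.

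*Cidea*, best known from brown and beige adipocytes, was measured at low counts, 5 to 26 per CD library. Its CD levels were 0.252, 0.492, 0.234, 0.102 and 0.269 CPM in replicates 1 to 5. The WD levels were 0.991, 1.37, 1.33, 0.831 and 1.40 CPM. The WD+CHP levels were 0.858, 1.58, 1.37, 0.726 and 0.859 CPM. No CD library reached the lowest library of either WD group, and the WD groups overlapped each other. The edgeR log2 fold change was 2.12 (SE 0.31, adjusted p = 5.72e-04) for WD vs. CD, -0.13 (SE 0.27, adjusted p = 0.887) for WD+CHP vs. WD and 1.98 (SE 0.31, adjusted p = 0.00129) for WD+CHP vs. CD. The WD vs. CD call of *Cidea* was lost with the white adipocyte covariate (1.61, edgeR adjusted p = 0.062), and a filter of 10 counts in every library dropped the gene. *Ucp1*, the defining marker of brown adipocytes, averaged 0.0140 CPM over the 15 gastrocnemius libraries and did not pass the filter. The sum of the 3 brown adipocyte markers, 1.36 to 2.08 CPM in CD, 1.59 to 2.65 CPM in WD and 1.51 to 2.40 CPM in WD+CHP, was almost all *Zic1*, the 1 marker that passed the filter, and it was not called.

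*Plin4* and the adipocyte-type *Lipe* overlapped between all groups. *Plin4*, the most abundant perilipin of the muscle, was 277, 284, 409, 314 and 308 CPM in CD. It was 383, 494, 303, 419 and 324 CPM in WD and 275, 289, 293, 506 and 284 CPM in WD+CHP. WD+CHP replicate 4 stood far above the other 4 libraries of its group, and the log2 fold changes were 0.27 (SE 0.17, adjusted p = 0.351) for WD vs. CD and -0.22 (SE 0.17, adjusted p = 0.634) for WD+CHP vs. WD by edgeR. Without that library WD+CHP vs. WD gave -0.43, and WD+CHP vs. CD turned from 0.05 to -0.16, none of them called. *Lipe*, the hormone-sensitive lipase, was 28.3, 31.9, 26.3, 24.4 and 31.1 CPM in CD. It was 36.8, 34.9, 34.1, 31.8 and 28.7 CPM in WD and 28.0, 31.7, 25.8, 30.6 and 30.5 CPM in WD+CHP. Each group again overlapped the others, with edgeR log2 fold changes of 0.23 (SE 0.08, adjusted p = 0.0935) for WD vs. CD, -0.18 (SE 0.08, adjusted p = 0.372) for WD+CHP vs. WD and 0.05 (SE 0.08, adjusted p = 0.771) for WD+CHP vs. CD. The WD vs. CD value of *Lipe* passed 0.05 in 1 of the other settings, the scaling by total count (edgeR adjusted p = 0.041), and when CD replicate 2 or WD replicate 5 was left out.

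The broad perilipins and adipose triglyceride lipase were not called in muscle. *Plin2*, the perilipin that most cells raise when lipid is stored, ranged over 26.8 to 33.9 CPM in CD, 29.2 to 39.4 CPM in WD and 30.2 to 34.6 CPM in WD+CHP. These ranges overlap, and edgeR gave 0.19 (SE 0.09, adjusted p = 0.178) for WD vs. CD on the log2 scale. *Plin3* had means of 27.1 ± 2.93 CPM, 27.3 ± 2.20 CPM and 27.4 ± 0.762 CPM in CD, WD and WD+CHP (SD, n = 5), with log2 fold changes of 0.01 (SE 0.07, adjusted p = 0.954) for WD vs. CD and 0.01 (SE 0.07, adjusted p = 0.986) for WD+CHP vs. WD by edgeR. *Pnpla2* had means of 247 ± 24.3 CPM, 255 ± 19.8 CPM and 271 ± 11 CPM in the same order, with log2 fold changes of 0.05 (SE 0.07, adjusted p = 0.728) for WD vs. CD and 0.14 (SE 0.07, adjusted p = 0.212) for WD+CHP vs. CD by edgeR. *Cideb*, which was not tested here, had its highest counts in the libraries with the most hepatocyte marker, 0.193 CPM in CD replicate 1 and 0.183 CPM in WD replicate 3, and lay at 0 to 0.0572 CPM in the other 13.

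**Figure D3:**
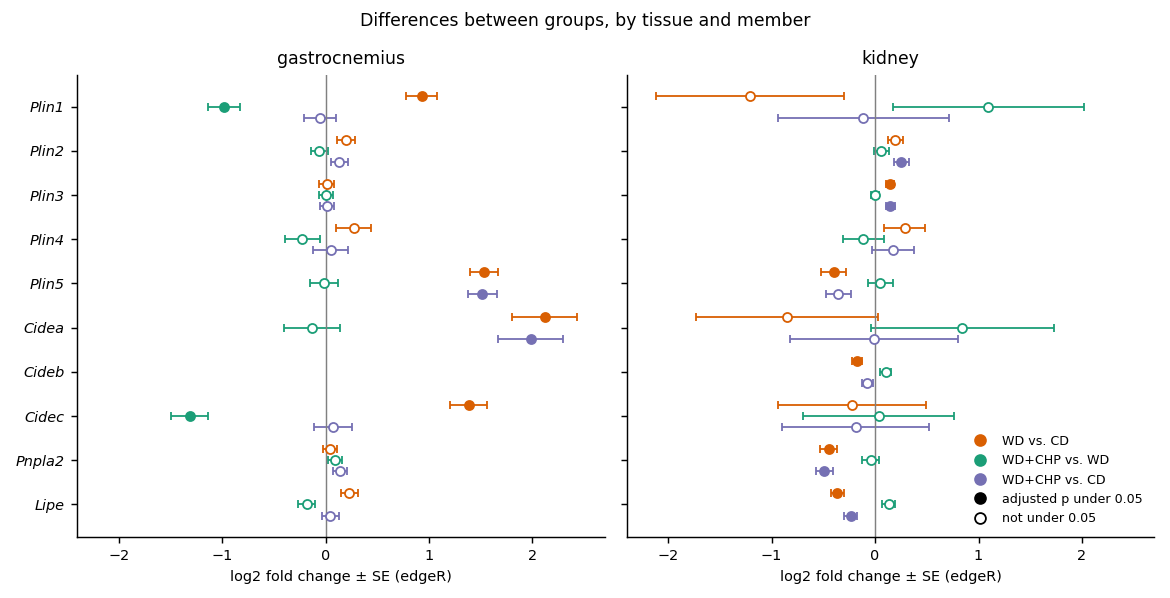
Log2 fold change of each member with its standard error from edgeR in gastrocnemius (left) and kidney (right), for WD vs. CD (orange), WD+CHP vs. WD (green) and WD+CHP vs. CD (purple). Filled points have an adjusted p under 0.05, and *Cideb* has no point in gastrocnemius because it was not tested there.

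The 250 bases before the RefSeq transcription starts of *Plin1*, *Cidec* and *Plin5* are given below. The genes were chosen by their course, since *Plin1* and *Cidec* moved together in muscle and *Plin5* did not follow them with CHP. Whether these sequences bear on that course was not tested. Promoters of the 9 members other than *Cidea* were read from RefSeq (GRCm38.p6) by symbol. *Cidea* was left out of this reading, so nothing is said here about its promoter. For *Cidec* and for *Plin5* the first of 2 starts listed is shown. The promoters shown lie on the minus strand at chr7:79732777-79733026 for *Plin1*, chr6:113435761-113436010 for *Cidec* and chr17:56117549-56117798 for *Plin5*. Each is printed from 5′ to 3′ on the strand of the gene. Capitals mark matches on either strand to the nuclear receptor half-site AGGTCA or the C/EBP-type motif TTGCNNAA, which do not overlap here. The half-site was found in 14% and the C/EBP-type motif in 9.56% of the 32851 promoter entries over the same 250 bases, and a pair of AGGNCA sites in direct repeat with 1 base between them (DR1), searched in the same way, in 0.338%.
Plin1: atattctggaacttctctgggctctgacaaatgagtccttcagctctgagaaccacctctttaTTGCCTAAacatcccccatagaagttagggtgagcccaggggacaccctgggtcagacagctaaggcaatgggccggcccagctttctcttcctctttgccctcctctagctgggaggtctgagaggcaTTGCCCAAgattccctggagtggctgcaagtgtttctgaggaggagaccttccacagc
Cidec: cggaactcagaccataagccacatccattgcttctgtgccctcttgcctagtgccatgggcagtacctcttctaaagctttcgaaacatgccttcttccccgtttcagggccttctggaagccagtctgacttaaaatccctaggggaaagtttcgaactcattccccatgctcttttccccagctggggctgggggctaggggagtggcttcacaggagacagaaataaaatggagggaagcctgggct
Plin5: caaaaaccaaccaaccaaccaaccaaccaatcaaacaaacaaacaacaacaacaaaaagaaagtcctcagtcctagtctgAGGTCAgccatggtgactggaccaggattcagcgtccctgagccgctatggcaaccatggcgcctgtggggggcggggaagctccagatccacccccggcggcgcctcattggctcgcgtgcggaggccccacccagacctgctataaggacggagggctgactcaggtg
*Plin1* has 2 matches to the C/EBP-type motif, which begin 187 and 58 bases before the start. *Plin5* has 1 half-site, which begins 170 bases before the start, and *Cidec* has no match to any of the 3 motifs in this window. The other start listed for *Cidec* has 1 match to the C/EBP-type motif, and the other start of *Plin5* has none. A match of letters is a description and not a binding site.

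Where the members lie was read from GENCODE M21 (GRCm38). *Plin4* (chr17:56100591-56109803) and *Plin5* (chr17:56111601-56117596) are neighbours on the minus strand, yet *Plin5* rose in muscle with the WD and *Plin4* was not called. *Plin3* lies on the same chromosome at chr17:56277476-56292873. *Plin1* spans chr7:79720218-79732903 and *Cidec* chr6:113424634-113435760, both on the minus strand, and neither they nor *Plin5*, *Plin2*, *Plin3* and *Pnpla2* overlap another annotated gene. *Cidea*, *Cideb*, *Plin4* and *Lipe* each overlap a gene on the opposite strand, in the case of *Cideb* (chr14:55754050-55758458) the gene *Nop9*. Whether counting used strand is not given in the sources used here, so reads in these overlaps could belong to either gene.

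The course of *Plin1* and *Cidec* in muscle was also that of *Adipoq*, which encodes the adipocyte hormone adiponectin and was singled out from the marker list after its values were seen. *Adipoq* stood at 5.60 to 10.9 CPM in CD, 14.6 to 17.2 CPM in WD and 5.13 to 9.52 CPM in WD+CHP, with edgeR log2 fold changes of 1.00 (SE 0.17, adjusted p = 0.00153) for WD vs. CD and -1.15 (SE 0.17, adjusted p = 0.00671) for WD+CHP vs. WD. The CPM of *Plin1* divided by that of *Adipoq* in the same library was 0.982 to 1.39 in CD, 0.834 to 1.21 in WD and 1.02 to 1.33 in WD+CHP, so these ranges overlap in all groups. For *Cidec* the ratio was 0.466 to 0.904, 0.780 to 0.962 and 0.601 to 0.844 in the same order, again overlapping. *Lipe*, also adipocyte-type, did not keep to *Adipoq* in this way. Its ratio was 2.59 to 4.70 in CD, 1.85 to 2.38 in WD and 3.33 to 5.46 in WD+CHP, with WD below both other groups. For *Plin5* the ratio was 1.12 to 1.81 in CD, 1.88 to 2.69 in WD and 4.29 to 6.09 in WD+CHP, with no overlap between any of the groups. *Adipoq* itself was lower with CHP, and the CPM of *Plin5* covered the same range in both WD groups. This ratio therefore does not show a change of *Plin5* with CHP. For *Cidea* the ratio was 0.0182 to 0.0518, 0.0482 to 0.0954 and 0.0902 to 0.206 in the same order, where WD overlapped both other groups and CD did not reach WD+CHP.

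**Figure D4:**
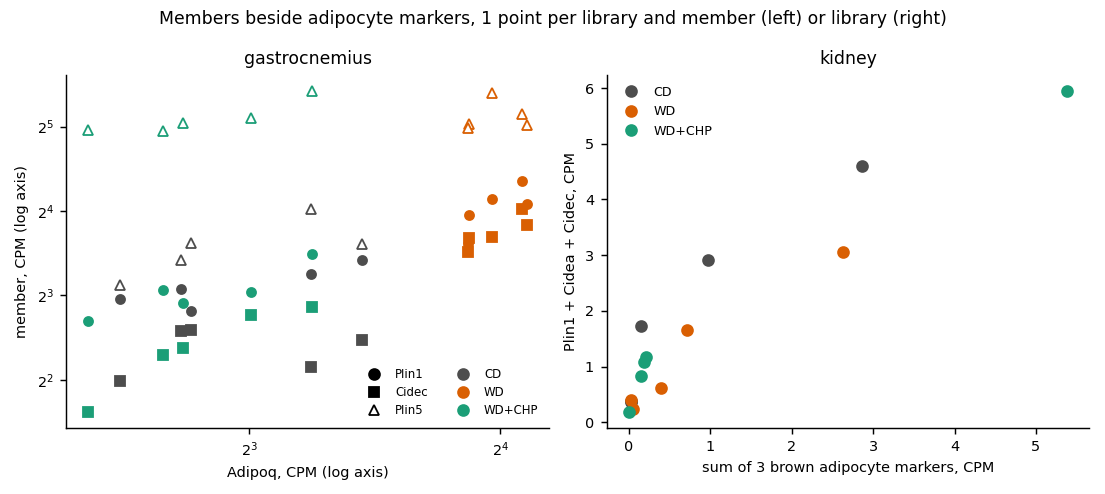
Left, CPM of *Plin1*, *Cidec* and *Plin5* against *Adipoq* in the 15 gastrocnemius libraries, both axes logarithmic, coloured by group. Right, summed CPM of *Plin1*, *Cidea* and *Cidec* against the summed CPM of 3 brown adipocyte markers in the 15 kidney libraries, where the highest point is WD+CHP replicate 5 at 5.95 CPM.

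The 11 white adipocyte markers did not all share the course of *Adipoq*. Their summed level was 124 to 198 CPM in CD, 171 to 223 CPM in WD and 109 to 171 CPM in WD+CHP, and no marker was at 0 in any group. *Fabp4* held most of this sum and is also made by endothelial cells, with edgeR log2 fold changes of 0.32 (SE 0.14, adjusted p = 0.172) for WD vs. CD and -0.32 (SE 0.14, adjusted p = 0.347) for WD+CHP vs. WD. In WD vs. CD, 3 of 11 markers rose and 1, *Cfd* (adipsin), fell, with edgeR log2 fold changes of -1.59 (SE 0.23, adjusted p = 5.46e-04) for WD vs. CD and 0.01 (SE 0.23, adjusted p = 0.993) for WD+CHP vs. WD. *Lep*, which encodes leptin and was also singled out after its values were seen, went from 1.39 to 21.7 CPM on average with the WD, an edgeR log2 fold change of 3.96 (SE 0.43, adjusted p = 5.40e-05), and differed by -1.89 (SE 0.37, adjusted p = 0.0326) on the log2 scale between WD+CHP and WD by edgeR. With CHP 4 of 11 were lower than with the WD alone and 0 were higher, and in WD+CHP vs. CD 3 of 11 were lower and 1 was higher by edgeR, with 8 of 11 log2 fold changes negative. With the mean of these markers as a covariate in edgeR, *Plin5* alone was called in WD vs. CD (log2 fold change 1.19, adjusted p = 0.0018), while *Plin1* (0.55, adjusted p = 0.15), *Cidec* (0.96, adjusted p = 0.062) and *Cidea* (1.61, adjusted p = 0.062) were not. The same covariate left no member called in WD+CHP vs. WD, with *Plin1* at -0.48 (adjusted p = 0.44) and *Cidec* at -0.76 (adjusted p = 0.40), while *Plin5* stood at 0.47 and *Cidea* at 0.59, also uncalled. In WD+CHP vs. CD *Plin5* (1.66, adjusted p = 3.50e-06) and *Cidea* (2.20, adjusted p = 7.05e-04) were called with it by edgeR. The loss was not particular to the members: with this covariate 139 of all genes were called in WD vs. CD in place of 1330, and 0 in WD+CHP vs. WD in place of 63. In whole tissue, more cells of a type and more RNA per cell cannot be told apart.

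Markers of other cells were read beside these members. Fast fibre markers summed to 198952 to 238574 CPM in CD, 179208 to 210214 CPM in WD and 181123 to 212832 CPM in WD+CHP, with 0 of 11 called in each comparison by edgeR and 9 of 11 log2 fold changes negative in WD vs. CD, and their part in the values of the members was not tested. Slow fibre markers summed to 572 to 1589 CPM in CD, 776 to 2822 CPM in WD and 936 to 1574 CPM in WD+CHP. By edgeR 0 of the 7 were called in WD vs. CD, where all 7 log2 fold changes were positive, from 0.48 to 0.99, and 0 were called in WD+CHP vs. WD, where all 7 were negative, from -0.45 to -0.11. With their mean as a covariate, a setting added after the data were seen, *Plin5*, *Cidea*, *Cidec* and *Plin1* were called in WD vs. CD, with *Plin5* at a log2 fold change of 1.48. Macrophage markers summed to 56.8 to 93.4 CPM in CD, 63.7 to 93.0 CPM in WD and 47.1 to 95.1 CPM in WD+CHP. None of the 8 was called by edgeR, all 8 were positive in WD vs. CD and all 8 negative in WD+CHP vs. WD, and their part in the values of *Plin1* and *Cidec* was not tested. Without CD replicate 1 and WD replicate 3, the libraries high in hepatocyte markers, the same members were called in each of the 3 gastrocnemius comparisons, and *Plin5* stood at 1.46 for WD vs. CD.

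Across the 15 gastrocnemius libraries, after each group was centred on its mean, the log2 CPM of *Plin1* correlated most with *Csad* (r = 0.87), *Lgals12* (r = 0.84), *Erich1* (r = 0.84), *Arhgap32* (r = 0.82) and *Aoc3* (r = 0.81) among 10817 genes. *Plin5* correlated most with *Entpd2* (r = 0.89), *Plbd1* (r = 0.88), *Clec14a* (r = 0.88), *C4b* (r = 0.84) and *Pitx3* (r = 0.83). Between members, *Plin1* had r = 0.69 with *Lipe*, 0.60 with *Cidec*, 0.55 with *Plin5* and -0.13 with *Plin4*. The points share their libraries and scaling, and these values describe only the spread within groups.

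Genes that act around these members in gastrocnemius were read from 3 lists. Of 14 tested lipolysis partners and hormones, 5 rose and 0 fell in WD vs. CD, with a median log2 fold change of 0.21 beside 0.0013 for all genes. *G0s2*, the inhibitor of adipose triglyceride lipase, rose by 1.44 (SE 0.23, adjusted p = 9.32e-04) on the log2 scale, *Prkar2b*, a regulatory subunit of protein kinase A, by 1.40 (SE 0.15, adjusted p = 5.92e-05), *Abhd15* by 0.89 (SE 0.26, adjusted p = 0.0437), *Pnpla3* by 0.66 (SE 0.18, adjusted p = 0.0335) and *Mgll*, the monoglyceride lipase, by 0.44 (SE 0.07, adjusted p = 6.74e-04), all from edgeR. Of 18 droplet formation and coat genes, 3 rose and 1 fell, where 8.63% of all genes were called. *Dgat2*, which completes triglyceride synthesis, rose by 1.39 (SE 0.11, adjusted p = 7.76e-06), *Acsl1* by 0.39 (SE 0.08, adjusted p = 0.00407) and *Cav1* by 0.19 (SE 0.06, adjusted p = 0.0468), and *Lpin1*, a phosphatidate phosphatase, changed by -0.52 (SE 0.08, adjusted p = 0.00123). Of 10 genes on a list of transcription regulators and a target of theirs (*Angptl4*) 1 passed, a share near that of all genes. It was *Cebpa*, at 0.49 (SE 0.13, adjusted p = 0.0290) by edgeR.

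With CHP, where 0.409% of all genes were called, 1 of the 14 lipolysis genes was lower than with the WD alone, *Prkar2b*, at -1.16 (SE 0.15, adjusted p = 0.00361) by edgeR. None of the 18 droplet genes was called, and 1 of the 10 regulators was, *Cebpa*, at -0.68 (SE 0.13, adjusted p = 0.0304). Against the CD, 2 of 14 lipolysis genes, 4 of 18 droplet genes and 2 of 10 regulators were called in WD+CHP, beside 9.40% of all genes. Of these *Dgat2* (1.11, SE 0.11, adjusted p = 4.69e-05), *G0s2* (0.79, SE 0.23, adjusted p = 0.0395), *Mgll* (0.42, SE 0.07, adjusted p = 0.00129) and *Acsl1* (0.43, SE 0.08, adjusted p = 0.00234) were higher by edgeR, together with *Fitm2* at 0.17, *Ppara* at 0.57 and *Srebf1* at 0.29, and *Lpin1* was lower at -0.36. Read beside the members, *Prkar2b* and *Cebpa* had the course of *Plin1* and *Cidec*, and *Dgat2* stayed above the CD level in both WD groups as did *Plin5*. With the white adipocyte covariate 0 genes were called in WD+CHP vs. WD, so the calls of *Prkar2b* and *Cebpa* there were lost too.

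In kidney 4 of the 5 members called with the WD were lower than on the CD. Both lipases fell, *Plin5* and *Cideb* fell, and *Plin3* rose, so that 5 of 10 members passed in WD vs. CD, where 9.65% of 17120 genes passed. Between WD+CHP and WD 0 of 10 members passed by edgeR, against 0.105% of all genes, and 0 had an unadjusted p under 0.05, against 11.4% of all genes. DESeq2 and limma-voom also called 0. In WD+CHP vs. CD 4 of 10 passed, against 12.1% of all genes, with *Pnpla2* and *Lipe* lower and *Plin2* and *Plin3* higher.

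**Figure D5:**
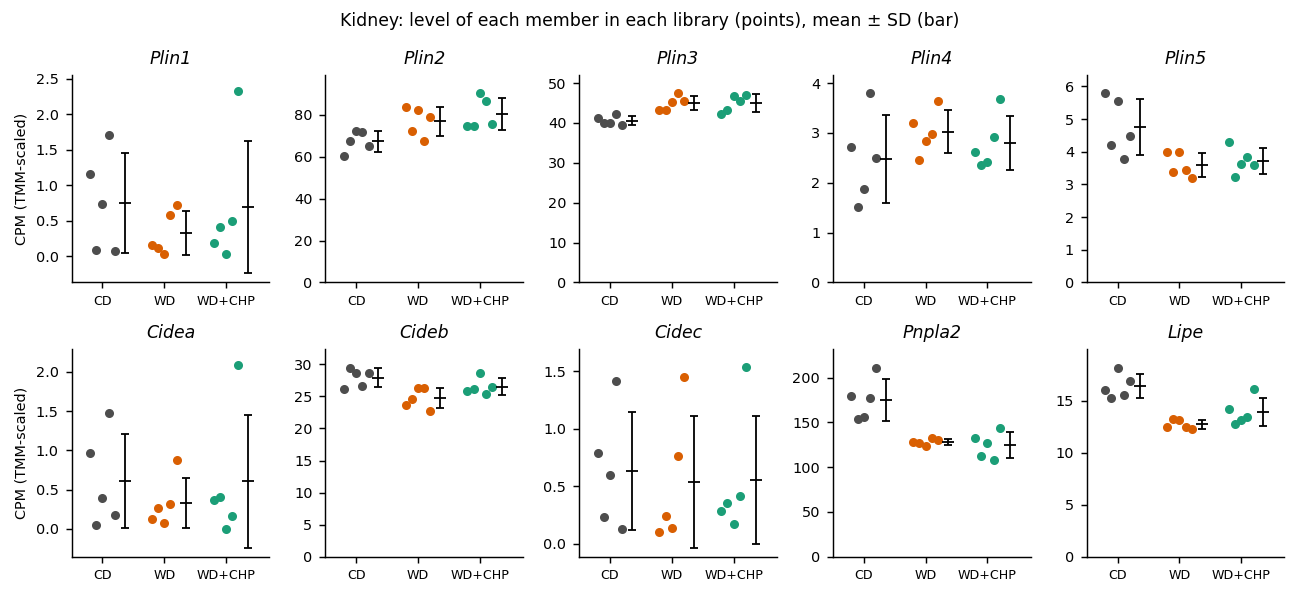
CPM of each member in the 15 kidney libraries, 1 panel per gene and 5 points per group, with the mean and SD drawn as a bar beside the points. The CD points of *Pnpla2* lie above all points of the other groups, and *Plin1*, *Cidea* and *Cidec* are under 1 CPM in most libraries.

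*Pnpla2*, whose lipase starts triglyceride breakdown, was 179.9, 153, 156, 177 and 211 CPM in CD, replicates 1 to 5. It was 128, 128, 124, 133 and 131 CPM in WD. It was 133, 113, 127, 108 and 144 CPM in WD+CHP. All CD libraries lay above all libraries of the other groups. The mean was 26.7% lower with the WD in the edgeR fit, a log2 fold change of -0.45 (SE 0.08, adjusted p = 0.00332), and WD+CHP vs. CD gave -0.49 (SE 0.08, adjusted p = 0.00188). WD+CHP vs. WD gave -0.04 (SE 0.08, adjusted p = 0.900).

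*Lipe*, which takes the following step of lipolysis, moved in parallel. Its levels were 16.1, 15.3, 18.1, 15.5 and 16.9 CPM in CD. They were 12.4, 13.3, 13.1, 12.5 and 12.2 CPM in WD and 14.2, 12.7, 13.1, 13.4 and 16.1 CPM in WD+CHP. The WD libraries lay below every CD library, and WD+CHP replicate 5 reached into the CD range. The edgeR log2 fold change was -0.37 (SE 0.06, adjusted p = 0.00211) for WD vs. CD, -0.24 (SE 0.06, adjusted p = 0.0230) for WD+CHP vs. CD and 0.13 (SE 0.06, adjusted p = 0.464) for WD+CHP vs. WD. The calls of *Pnpla2* and *Lipe* in WD vs. CD held under every alternative and with each library left out, whereas the call of *Lipe* in WD+CHP vs. CD was lost without any 1 of CD replicates 3 and 5 and WD+CHP replicates 2, 3 and 4, with the length and GC correction (edgeR adjusted p = 0.052) and with only the groups compared in the fit (edgeR adjusted p = 0.059).

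*Plin5* moved in the direction opposite to muscle. It was 5.79, 4.20, 5.54, 3.79 and 4.48 CPM in CD. It was 3.98, 3.39, 4.01, 3.43 and 3.20 CPM in WD and 4.31, 3.23, 3.62, 3.85 and 3.60 CPM in WD+CHP. CD replicate 4 lay within the WD range, so the groups overlapped. The edgeR log2 fold change was -0.40 (SE 0.12, adjusted p = 0.0413) for WD vs. CD and -0.35 (SE 0.12, adjusted p = 0.0606) for WD+CHP vs. CD. The latter passed with DESeq2 (adjusted p = 0.043), with the total count in edgeR (adjusted p = 0.030), with a replicate block in edgeR (adjusted p = 0.028), and without CD replicate 4 or WD+CHP replicate 1. *Cideb*, which helps to load lipid onto lipoproteins in the liver, was 26.1, 29.5, 28.7, 26.5 and 28.7 CPM in CD. It was 23.7, 24.6, 26.3, 26.2 and 22.7 CPM in WD and 25.9, 26.1, 28.7, 25.3 and 26.4 CPM in WD+CHP. The ranges of CD and WD met at their edge, with log2 fold changes by edgeR of -0.18 (SE 0.05, adjusted p = 0.0376) for WD vs. CD and 0.10 (SE 0.05, adjusted p = 0.479) for WD+CHP vs. WD.

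Among the broad perilipins in kidney, *Plin3* rose in both WD groups and *Plin2* was called in WD+CHP vs. CD. *Plin3* was 41.3, 40.0, 39.9, 42.3 and 39.5 CPM in CD. It was 43.2, 43.3, 45.2, 47.4 and 45.5 CPM in WD and 42.2, 43.2, 46.9, 45.5 and 47.0 CPM in WD+CHP. Every WD library was above every CD library, by a small margin, with an edgeR log2 fold change of 0.15 (SE 0.04, adjusted p = 0.0320) for WD vs. CD and 0.15 (SE 0.04, adjusted p = 0.0269) for WD+CHP vs. CD. *Plin2*, the most abundant kidney perilipin per kb, was 60.4, 67.3, 72.2, 71.6 and 65.0 CPM in CD. It was 83.9, 72.5, 82.3, 67.4 and 78.9 CPM in WD and 74.5, 74.4, 90.2, 86.6 and 75.8 CPM in WD+CHP. The WD libraries overlapped the CD range and the WD+CHP libraries did not, and edgeR gave 0.19 (SE 0.07, adjusted p = 0.0953) for WD vs. CD and 0.26 (SE 0.07, adjusted p = 0.0287) for WD+CHP vs. CD. These smaller kidney calls depended on single libraries and on settings. Scaling by total count ended the call of *Plin3* in WD vs. CD (edgeR adjusted p = 0.056) and those of *Plin2* (0.055) and *Plin3* (0.12) in WD+CHP vs. CD. Without a filter *Plin3* (edgeR adjusted p = 0.072), *Plin5* (0.054) and *Cideb* (0.074) lost theirs in WD vs. CD and *Plin3* (0.064) in WD+CHP vs. CD, and with only the groups compared in the fit *Plin5* (edgeR adjusted p = 0.064) and *Cideb* (0.055) did in WD vs. CD. The adipocyte covariate ended that of *Plin2* in WD+CHP vs. CD (edgeR adjusted p = 0.060). In WD vs. CD the call of *Plin3* was lost without any 1 of CD replicates 2, 3 and 5 and WD replicates 3, 4 and 5 (edgeR adjusted p from 0.052 to 0.067). That of *Plin5* was lost without any 1 of CD replicates 1, 3 and 5 and WD replicates 2, 3, 4 and 5 (edgeR adjusted p up to 0.12), and that of *Cideb* without any 1 of CD replicates 2, 3 and 5 and WD replicates 1, 2 and 5 (edgeR adjusted p up to 0.10). In WD+CHP vs. CD *Plin2* was lost without CD replicate 1 or 5 or WD+CHP replicate 3 or 4 (edgeR adjusted p up to 0.079), and *Plin3* without CD replicate 5 or WD+CHP replicate 3, 4 or 5 (edgeR adjusted p up to 0.063).

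*Plin1*, *Cidea* and *Cidec* were scarce in kidney and varied widely among the libraries of each group. *Plin1* was 1.15, 0.0778, 0.732, 1.70 and 0.0763 CPM in CD. It was 0.158, 0.106, 0.0271, 0.580 and 0.724 CPM in WD and 0.183, 0.411, 0.0278, 0.499 and 2.33 CPM in WD+CHP. *Cidea* ranged over 0.0519 to 1.47 CPM, 0.0812 to 0.879 CPM and 0 to 2.08 CPM in CD, WD and WD+CHP, and *Cidec* over 0.127 to 1.42 CPM, 0.106 to 1.45 CPM and 0.167 to 1.54 CPM. The groups of all 3 genes overlapped and their edgeR log2 fold changes carried standard errors of 0.71 to 0.92 across the 3 comparisons, so no difference between groups was shown beyond the spread between libraries. With the white adipocyte markers as a covariate in edgeR, the fold changes of all 3 turned positive in WD vs. CD and WD+CHP vs. CD, and *Cidec* was called, at 1.02 for WD vs. CD (adjusted p = 0.029) and 0.88 for WD+CHP vs. CD (adjusted p = 0.041). The summed CPM of these 3 genes was highest in WD+CHP replicate 5, CD replicate 4, WD replicate 5 and CD replicate 1, at 5.95, 4.59, 3.05 and 2.91 CPM, and the same 4 libraries had the highest sums of the brown adipocyte markers, 5.39, 2.86, 2.64 and 0.969 CPM. The other 11 libraries had 0 to 0.712 CPM of these markers and 0.195 to 1.73 CPM of the 3 members. Without the 4 libraries, a setting added after the data were seen, *Pnpla2*, *Lipe* and *Cideb* were called in WD vs. CD and *Pnpla2* and *Lipe* in WD+CHP vs. CD.

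*Plin4*, abundant in muscle, was low in kidney, with 1.5 to 3.79 CPM in CD, 2.46 to 3.64 CPM in WD and 2.35 to 3.68 CPM in WD+CHP. The ranges overlap, and the edgeR log2 fold changes were 0.29 (SE 0.20, adjusted p = 0.401) for WD vs. CD and -0.11 (SE 0.20, adjusted p = 0.881) for WD+CHP vs. WD. White adipocyte markers summed to 30.4 to 57.7 CPM in CD, 32.1 to 42.4 CPM in WD and 33.2 to 41.2 CPM in WD+CHP, most of it *Fabp4*, and 6 of the 11 passed the filter. In WD vs. CD 4 of these 6 were negative and 1 was called by edgeR, *Cfd*, at -2.47 (SE 0.68, adjusted p = 0.0311). *Lep* was at 0 in every CD library. With the mean of the white adipocyte markers as a covariate, *Pnpla2* (log2 fold change -0.44, adjusted p = 0.012) and *Lipe* (-0.36, adjusted p = 0.0086) were still called by edgeR in WD vs. CD. Hepatocyte markers in kidney summed to 142 to 318 CPM in CD, 175 to 857 CPM in WD and 198 to 306 CPM in WD+CHP, with WD replicate 5 the highest. In WD vs. CD 7 of the 8 hepatocyte markers were positive and 2 were called by edgeR, *Ttr* at 0.85 (adjusted p = 0.00953) and *Fga* at -1.04 (adjusted p = 0.0390), and their part in the values of the members was not tested. Without WD replicate 5 *Pnpla2* and *Lipe* were also called by edgeR in WD vs. CD.

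Among the genes around the members in kidney, 2 of 15 lipolysis partners rose and 1 fell in WD vs. CD, with a median log2 fold change of 0.052 beside 0.0015 for all genes. *Lipa*, the acid lipase of lysosomes, rose by 0.37 (SE 0.08, adjusted p = 0.00765) on the log2 scale by edgeR, *Mgll* by 0.20 (SE 0.05, adjusted p = 0.0307), and *Aqp7*, a glycerol channel, changed by -0.33 (SE 0.07, adjusted p = 0.00749). Of 19 droplet genes 2 rose, *Fitm1* (0.36, SE 0.08, adjusted p = 0.0107) and *Dgat2* (0.26, SE 0.06, adjusted p = 0.00789), and 2 fell, *Fitm2* (-0.27, SE 0.07, adjusted p = 0.0164) and *Tmem159* (-0.15, SE 0.04, adjusted p = 0.0296), by edgeR. *Angptl4*, an inhibitor of lipoprotein lipase and a target of PPAR receptors, fell from 106 to 43.2 CPM, a log2 fold change of -1.30 (SE 0.13, adjusted p = 3.94e-05) by edgeR, and was the 1 called on the list of 10 regulators with this target. Over all genes 9.65% were called in this comparison. Between WD+CHP and WD 0 genes of the 3 lists were called by edgeR. Between WD+CHP and CD 3, 5 and 2 were called, where 12.1% of all genes were, with *Mogat1* (0.46), *Lipa* (0.41), *Fitm1* (0.38), *Srebf1* (0.31), *Mgll* (0.19) and *Ldah* (0.19) higher and *Angptl4* (-0.82), *Gpat3* (-0.66), *Aqp7* (-0.35) and *Tmem159* (-0.20) lower on the log2 scale.

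Whether a member responded differently in the tissues was tested as an interaction over all 30 libraries, as the labels do not tie a kidney to the muscle of the same mouse. For WD vs. CD 3 of 10 members passed, against 4.13% of 18708 genes. *Plin5* gave the largest of the called differences, with an effect 1.93 log2 units higher in gastrocnemius than in kidney (SE 0.20, edgeR adjusted p = 4.30e-07). *Lipe* followed at 0.60 (SE 0.11, adjusted p = 0.00103) and *Pnpla2* at 0.49 (SE 0.11, adjusted p = 0.00835), both by edgeR, and both had fallen in kidney with no call in muscle. *Plin1* (2.13, SE 0.80, adjusted p = 0.139), *Cidea* (2.97, SE 0.98, adjusted p = 0.0838) and *Cidec* (1.60, SE 0.67, adjusted p = 0.189) did not pass in edgeR. For WD+CHP vs. WD 0 of 10 members passed by edgeR, against 0.347% of all genes, DESeq2 and limma-voom called 0, and 2 members had an unadjusted p under 0.05, as did 11.8% of all genes, *Lipe* (-0.30, SE 0.11, adjusted p = 0.228) and *Plin1* (-2.07, SE 0.82, adjusted p = 0.296). The fall of *Plin1* and *Cidec* with CHP in gastrocnemius is thus not shown to differ from kidney.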

How the data were processed

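Bulk polyA RNA-seq of gastrocnemius and kidney was deposited as raw counts per gene, 1 table per tissue, made by the authors with STAR 2.7.3a on GRCm38 (mm10), per the submitters' processing notes. The counting tool, annotation and strand setting are not given in the sources used here. The labels and the study's methods also name different RNA extraction kits for gastrocnemius. All columns matched a sample (0 without one).

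Genes were filtered with filterByExpr (minimum count 10), scaled by TMM and tested with the quasi-likelihood test of edgeR 4.0.16 (R 4.3.3), 3 groups in 1 model per tissue. A joint model of 30 libraries gave the tissue contrast and the interactions. P-values were adjusted by Benjamini-Hochberg over all genes tested (adjusted p under 0.05). CPM were computed from the deposited counts with TMM scaling, with a prior count of 2 on the log2 scale. The fit was also run on simulated counts, and the outcome is not given here.

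The members and lists were chosen with earlier results of these data known. All 10 members were named, with called genes of the pathway lists and the 5 genes most correlated with *Plin1* and *Plin5* among genes with a mean log2 CPM over 1. Alternatives were DESeq2 1.42.0, limma-voom 3.58.1, other scalings, filters and thresholds, covariates, a replicate block, a correction for length and GC content, and single libraries left out. Figures were drawn with matplotlib 3.10.9.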

Additional observations from a re-analysis of the deposited data

Results flagged for a closer look

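In 2 of the 60 combinations of member, group and tissue, 1 library lay far from the other 4 by Dixon's criterion on log2 CPM, which flags about 1 in 20 groups by chance. *Plin4* stood at 506 CPM in gastrocnemius WD+CHP replicate 4, and the nearest library of that group was at 293 CPM. *Cideb* stood at 0.193 CPM in gastrocnemius CD replicate 1, from 10 counts, with the nearest library at 0.0195 CPM, and this is a library high in hepatocyte markers. The flags depend on the log2 scale. Kidney WD+CHP replicate 5, with *Plin1* at 2.33 CPM beside 0.499 CPM in the nearest library, was not flagged on it.

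The effect of WD vs. CD differed between the tissues for 3 members in the interaction test of edgeR. The effect in gastrocnemius minus that in kidney was 1.93 for *Plin5* (SE 0.20), 0.60 for *Lipe* (SE 0.11) and 0.49 for *Pnpla2* (SE 0.11) on the log2 scale.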

How the results depend on the processing

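In gastrocnemius the members called (4, 2 and 2 in WD vs. CD, WD+CHP vs. WD and WD+CHP vs. CD) kept their calls with DESeq2, limma-voom, other scalings, no filter and each library left out. In WD vs. CD *Lipe* joined them with the total count, at an adjusted p under 0.1, and without CD replicate 2 or WD replicate 5, and in WD+CHP vs. CD *Pnpla2* joined without CD replicate 2. Exceptions were the filter of 10 counts in every library, which dropped *Cidea* and left 1 member in WD+CHP vs. CD, and the white adipocyte covariate, which left 1 in WD vs. CD and 0 in WD+CHP vs. WD. That covariate turned *Cidec* in kidney to 1.02 (WD vs. CD) and 0.88 (WD+CHP vs. CD) on the log2 scale, both called by edgeR (adjusted p = 0.029 and 0.041) where the main values were not, and the total count turned *Plin3* between tissues to -0.63. In kidney WD vs. CD 2 members were called with no filter, 3 with only the groups compared in the fit and 3 without the 4 libraries high in brown adipocyte markers, which left 2 in WD+CHP vs. CD. With 10 counts in every library 5 members were called between tissues.

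Counts of all genes called were 1330, 63 and 1450 in gastrocnemius, 1652, 18 and 2070 in kidney, and 772 and 65 for the interactions. At an adjusted p under 0.1 they were 2193 (WD vs. CD) and 2429 (WD+CHP vs. CD) in gastrocnemius, 2647, 75 and 3232 in kidney, and 1268 and 160. In gastrocnemius WD+CHP vs. WD gave 40 without a filter, 249 with DESeq2, 0 with the white adipocyte covariate, 37 with the slow fibre covariate and 26 without the 2 libraries high in hepatocyte markers, and WD vs. CD gave 139, 673 and 805 with the last 3 settings. In kidney WD+CHP vs. WD gave 37 without a filter, 194 with DESeq2, 6 with the length and GC correction and 0 with only the groups compared. Without the 4 libraries high in brown adipocyte markers WD+CHP vs. CD gave 1375. The CHP interaction gave 37 without a filter, 286 with DESeq2, 21 with the length and GC correction and 99 with the total count, which gave 1372 for the WD interaction. The causes were not tested.

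With single libraries left out, kidney members called ranged from 2 to 5 (WD vs. CD) and 1 to 5 (WD+CHP vs. CD), and the WD interaction from 3 to 5 members. Genes called ranged from 12 to 92 (WD+CHP vs. WD) and 873 to 1617 (WD+CHP vs. CD) in gastrocnemius, 0 to 97 and 1202 to 2150 in kidney, and 19 to 145 for the CHP interaction.

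Libraries with the same number correlated at -0.126 to 0.146 in gastrocnemius and -0.091 to 0.144 in kidney after centring each group. These values are low, but they cannot exclude that such libraries were handled together, and the labels do not say what the number means. With the replicate number as a block, 4, 2 and 2 members were called in gastrocnemius, kidney WD+CHP vs. WD gave 70 genes, *Cidea* passed in the WD interaction (3.27, edgeR adjusted p = 0.039), *Plin5* in kidney WD+CHP vs. CD (-0.35, adjusted p = 0.028), and *Plin2* no longer between tissues (adjusted p = 0.073). Counts were low for *Cidea* in muscle and for *Plin1*, *Cidea* and *Cidec* in kidney, and what depth contributes to their errors was not tested.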
